A study of Homo sapiens with 12 samples.

Results

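The genes examined were 10 that encode the core and ATPase subunits of the SWI/SNF chromatin remodelling complex. They are SMARCA4, SMARCA2, SMARCC1, SMARCC2, SMARCB1, SMARCE1, SMARCD1, SMARCD2, SMARCD3 and ACTL6A. Members were taken by gene name, 1 row each, from the 60645 names in the count table of every library. The rule uses names and no measured value, but the set was chosen with earlier results of these data known. All 10 passed the filter on low counts, which left 20377 genes for testing.

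The measurements came from polyA RNA of the human embryonic kidney line HEK-293T, in a derivative (called 12KO by its makers) whose ARID1A gene had been disrupted. ARID1A is a large DNA-binding subunit of SWI/SNF, and IDR1b is part of an intrinsically disordered region of it, a stretch without a fixed fold. The stated question was what IDR1b contributes to gene regulation by EWS-FLI1, the fusion transcription factor of Ewing sarcoma. Every group carried the ARID1A knockout. One pair of groups overexpressed an empty vector in place of ARID1A (written "no ARID1A"), one overexpressed wild-type ARID1A (WT), and one overexpressed ARID1A lacking IDR1b (ΔIDR1b). Within each of these 3 ARID1A states, one group received a second empty vector and the other overexpressed EWS-FLI1. EWS-FLI1 was given as 2 µg of plasmid for 48 h. The design thus had 6 groups of 2 libraries, 12 in all. Both ARID1A forms were forced expression in a knockout line, no unmodified 293T cells were among the samples, and no label says whether the 2 repeats of a group were separate cultures.

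The libraries held 11702251 to 14445379 counts. ARID1A stood at 147 to 165 CPM (counts scaled to an equal library total) in no ARID1A, 1840 to 2290 in WT and 2610 to 2880 in ΔIDR1b, so both forms were expressed and the ΔIDR1b form more highly. FLI1, whose reads come from the fusion in these cells, had 0 to 2 counts in each library with the second empty vector. With EWS-FLI1 it reached 1690 to 1830 CPM in no ARID1A, 3460 to 3680 in WT and 1890 to 1910 in ΔIDR1b, so the fusion's level differed between the states. Of 6 markers of the line, VIM, KRT8, KRT18, NEFL and PAX2 were present and NEFM was at 0 to 0.0747 CPM. The summed markers of haematopoietic (0 to 0.173 CPM), endothelial (0 to 0.897), hepatocyte (0.366 to 1.59) and muscle cells (0 to 1.00) were near 0. The fibroblast list summed to 86.2 to 132 CPM, nearly all of it COL1A1 and COL3A1, with DCN at 0 to 1.13 CPM.

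SWI/SNF complexes use the energy of ATP to slide or evict nucleosomes and so open enhancers and promoters. Each complex has a single ATPase, SMARCA4 (BRG1) or its paralog SMARCA2 (BRM). In the BAF form of the complex, the core around it is built on the scaffold proteins SMARCC1 and SMARCC2, SMARCB1 and SMARCE1. One of the paralogs SMARCD1, SMARCD2 and SMARCD3 joins them, and the actin-like protein ACTL6A sits on the ATPase. ARID1A or ARID1B completes the BAF form. Not every form of SWI/SNF holds all of these subunits. EWS-FLI1 recruits BAF complexes to repeats of the letters GGAA, its preferred DNA motif in Ewing sarcoma. Several core genes, SMARCB1 and SMARCA4 above all, are known tumour suppressors.

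Sequences are shown for the regions upstream of SMARCA4, which was not called in any comparison, and SMARCB1, which fell in ΔIDR1b, for the only start region among the members that carries tandem GGAA, and for the part of SMARCE1 that bears on how its reads were counted. Promoter windows of 300 bases around a transcription start (RefSeq, GRCh38.p14) were found for 7 of the 10 members, 15 windows in all, and not for SMARCC1, SMARCC2 and ACTL6A. The printed promoter bases lie upstream of the start and outside the gene's counted exons. Capitals mark GGAA on either strand, so TTCC is its reverse complement. The SMARCE1 line is exon 4 of the 11 exons of its principal mRNA (GENCODE 29, GRCh38) and is wholly coding. GGAA occurs in it and was not marked there.
SMARCA4, chr19:10960780-10960931, plus strand: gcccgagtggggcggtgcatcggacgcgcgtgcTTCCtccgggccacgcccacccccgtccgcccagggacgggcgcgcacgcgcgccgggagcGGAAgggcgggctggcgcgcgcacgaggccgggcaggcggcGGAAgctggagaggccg
SMARCB1, chr22:23786716-23786930, plus strand: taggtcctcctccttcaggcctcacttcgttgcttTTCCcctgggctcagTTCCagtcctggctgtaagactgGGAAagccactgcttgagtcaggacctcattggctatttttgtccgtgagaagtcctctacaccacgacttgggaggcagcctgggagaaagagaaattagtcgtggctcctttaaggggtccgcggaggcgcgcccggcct
SMARCA2, chr9:2158393-2158448, plus strand, before an internal start: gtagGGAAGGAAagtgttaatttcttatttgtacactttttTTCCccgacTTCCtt
SMARCE1, chr17:40642455-40642559, minus strand: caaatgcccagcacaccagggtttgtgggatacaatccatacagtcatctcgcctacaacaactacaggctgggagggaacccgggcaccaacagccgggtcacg

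Single GGAA is frequent: 95.5% of all 35116 windows and 14 of the 15 member windows held it on either strand. The tandem GGAAGGAA, which contains GGAA, occurred in 3.67% of all windows and in 1 of the 15, the internal SMARCA2 window at chr9:2158214-2158513. The motif CCGGAAGT, a high-affinity ETS form that also contains GGAA, was in 4.14% of all windows and in 0 of the 15. A match describes letters only.

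The 10 genes differed widely in abundance. Per kilobase of counted exons, the median over the 12 libraries was 37.6 CPM for SMARCC1, 28.3 for SMARCA4 and 28.2 for SMARCD1. SMARCD2 (21.5) and SMARCC2 (21.2) came next on that scale, then SMARCB1 (11.6), ACTL6A (10.6), SMARCD3 (6.75), SMARCA2 (2.66) and SMARCE1 (0.894). SMARCC1 (34.6 to 39.7 CPM per kilobase) lay above every library of the next 2 genes. SMARCA4 (25.3 to 32.2) and SMARCD1 (26.3 to 33.2) overlapped almost entirely, as did SMARCB1 (8.40 to 14.0) with ACTL6A (8.83 to 13.7). SMARCD2 (18.3 to 27.6) overlapped SMARCC2 (16.3 to 23.2) in part and reached into the ranges of SMARCA4 and SMARCD1. The ranges of SMARCD3 (5.58 to 9.32), SMARCA2 (2.14 to 3.16) and SMARCE1 (0.324 to 1.53) followed, of which only SMARCD3 touched the range above it. This order depends on the length used. The same counts were also divided by the length of principal mRNA that no other gene's exons overlap (free mRNA). SMARCB1 (median 83.8) and SMARCA4 (76.9) were then first and SMARCE1 (6.61) still last. These counts include fragments from counted exons outside that mRNA, which make up 68.5% of the counted bases of SMARCB1. The values are therefore not levels of free mRNA.

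**Figure D1:**
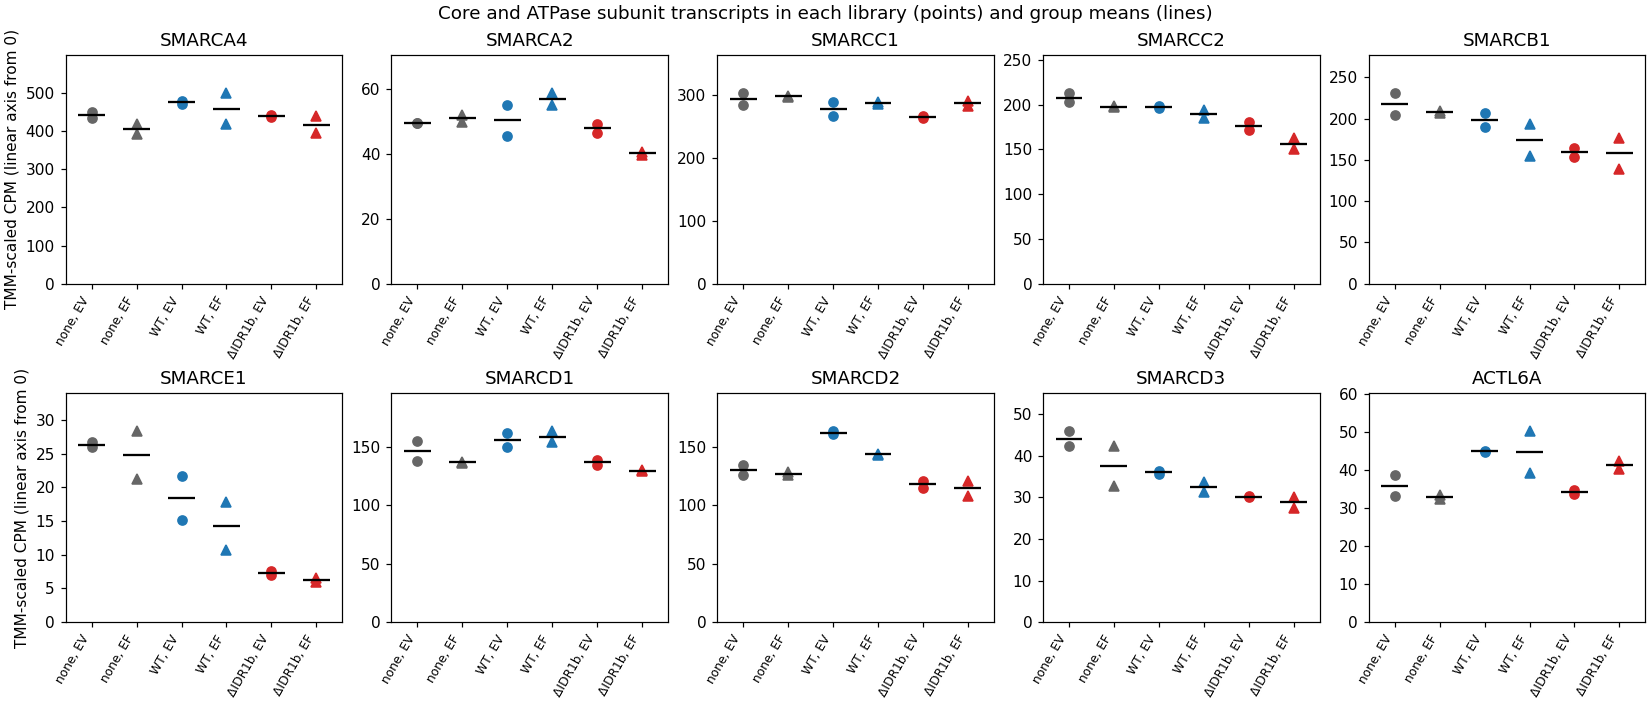
Scaled counts (CPM) of the 10 genes in each of the 12 libraries, by ARID1A state and by second plasmid (EV, second empty vector; EF, EWS-FLI1). Each point is 1 library, lines are group means, and "none" is no ARID1A. SMARCE1 spans 5.98 to 28.3 CPM with both ΔIDR1b groups lowest, whereas SMARCC1 spans 263 to 303 CPM.

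The ARID1A states were compared in 6 contrasts, 3 with each second plasmid, by a quasi-likelihood F-test in edgeR over all 20377 genes. A gene was called where its p, adjusted by Benjamini-Hochberg, was under 0.05. Comparisons that share a group are not independent of each other. In bulk RNA, fewer cells of a type and less RNA per cell cannot be told apart. WT against no ARID1A called 1 of 10 members with the empty vector, higher, where 11.7% of all tested genes were called (6.50% higher and 5.19% lower). With EWS-FLI1 it called 2 of 10, 1 in each direction, against 18.1% of all genes (9.72% higher and 8.36% lower). ΔIDR1b against no ARID1A called 3 of 10 under the empty vector, then 5 of 10 under EWS-FLI1, all lower. The shares of all genes called were 33.3% and 35.9%, and 16.8% and 17.9% lower. ΔIDR1b against WT called 4 of 10 and 5 of 10, again all lower, where all genes gave 24.5% (13.4% lower) and 18.6% (10.1% lower). The median log2 fold change of the members against WT was -0.23 with either plasmid, beside 0.01 for all tested genes. Against no ARID1A it was -0.14 and -0.24, beside 0.00 and 0.02. In these 4 comparisons no member was called higher. All members but SMARCC1 and SMARCD1 had 48.4 to 68.5% of their counted exon bases outside the principal mRNA. Of tested genes with 40 to 60% outside it, ΔIDR1b called 20.2% and 20.7% lower against no ARID1A (empty vector, then EWS-FLI1). Against WT it called 18.6% and 12.4% of them lower. With 60 to 80% outside it, the shares were 24.4% and 25.7% against no ARID1A, and 21.9% and 16.2% against WT. Of the 20 called pairs of a member and a comparison, 7 were also called in each of 21 alternative settings, and the other 13 were lost in at least 1 of them.

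**Figure D2:**
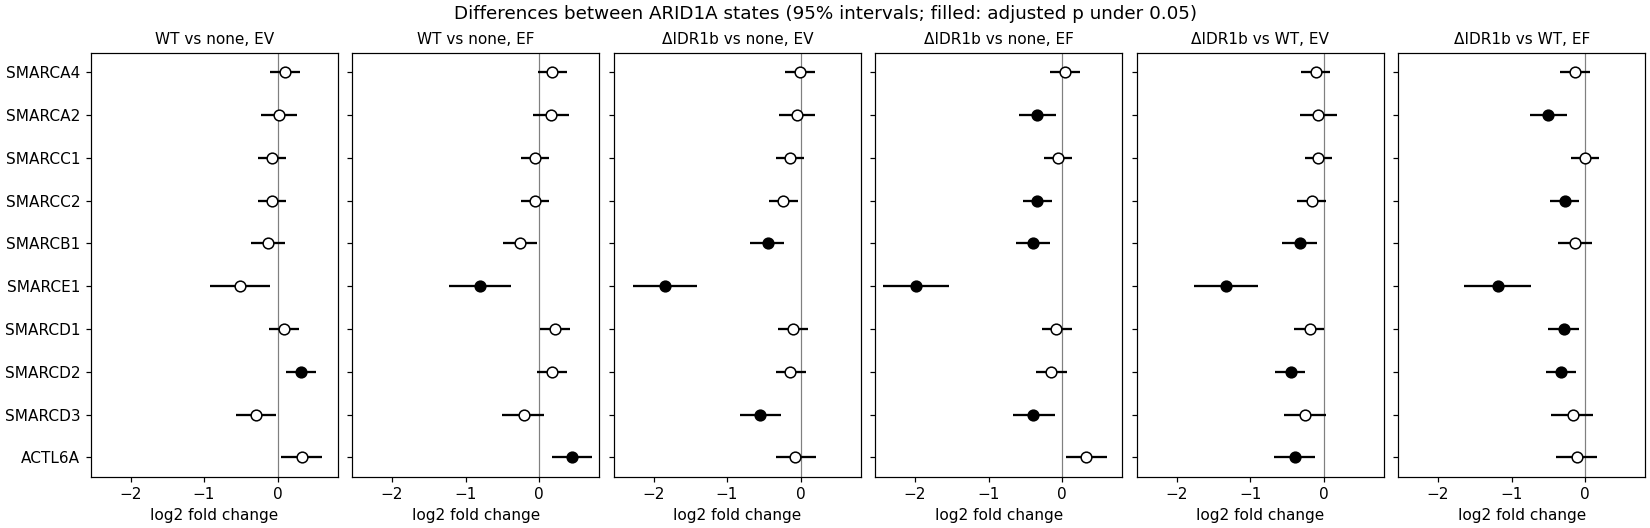
Log2 fold changes of the 10 genes between ARID1A states with 95% intervals, by second plasmid. Filled points have an adjusted p under 0.05. SMARCE1 lies furthest left in the comparisons with ΔIDR1b, at -1.84 and -1.99 against no ARID1A.

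SMARCA4, the main ATPase here, did not pass the test in any of the 13 contrasts. Its CPM were 450 and 435 in no ARID1A, 478 and 471 in WT and 437 and 442 in ΔIDR1b with the empty vector. With EWS-FLI1 the values were 391 and 419 in no ARID1A, 418 and 499 in WT, and 395 and 438 in ΔIDR1b. The 2 groups overlapped in 4 of the 6 comparisons between states, and the highest and lowest library differed 1.28-fold. The 95% intervals of the 6 state differences together ran from -0.34 to 0.38 on the log2 scale. The largest was WT against no ARID1A with EWS-FLI1, at 0.18 (95% interval -0.02 to 0.38, adjusted p 0.205 by edgeR). Without WT EWS-FLI1 repeat 1, this difference became 0.30 with an adjusted p of 0.0189. The gene lies at chr19:10960932-11079426 (GRCh38).

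SMARCA2, the alternative ATPase, was much less abundant and fell in ΔIDR1b with EWS-FLI1. Its CPM were 52.0 and 50.0 in no ARID1A, 58.8 and 55.2 in WT and 40.7 and 39.8 in ΔIDR1b with EWS-FLI1. With the empty vector, no ARID1A gave 49.6 and 49.5, WT gave 45.5 and 55.2 and ΔIDR1b gave 46.6 and 49.4. Both ΔIDR1b libraries with EWS-FLI1 were lower than all 10 others. Relative to WT the log2 fold change was -0.50 (SE 0.12, adjusted p 0.00408 by edgeR), a 1.42-fold fall, called in all 21 alternatives. Relative to no ARID1A it was -0.34 (SE 0.12, adjusted p 0.0302), a call lost when any of the 4 libraries compared was left out, with an adjusted p of up to 0.163, and in 2 other settings. The empty-vector intervals, -0.32 to 0.18 against WT and -0.30 to 0.20 against no ARID1A, include 0. The interaction itself, the effect of EWS-FLI1 in ΔIDR1b less that in WT, was -0.43 (95% interval -0.78 to -0.08) with an unadjusted p of 0.0182 and an adjusted p of 1.00 by edgeR, so a difference between the plasmids was not shown. SMARCA2 lies at chr9:1980290-2193624.

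SMARCC1 and SMARCC2 are the paired scaffold proteins on which the complex assembles. SMARCC1 was the most even member, from 263 to 303 CPM in the 12 libraries, and passed the test in none of the 13 contrasts. Its state differences had 95% intervals between -0.34 and 0.19. The lowest was -0.15 in ΔIDR1b against no ARID1A with the empty vector (266 and 263 against 284 and 303 CPM, adjusted p 0.228 by edgeR). When the trend of fold change with gene length was removed, that difference was -0.27 with an adjusted p of 0.0222. With the trend in the share of counted exons outside the principal mRNA removed (described with SMARCE1), it was -0.31 (adjusted p 0.00840), and the same difference with EWS-FLI1 went from -0.05 (adjusted p 0.684) to -0.25 (adjusted p 0.0318). The SMARCC1 result thus depends on these settings.

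SMARCC2 was lower in ΔIDR1b, and the main fit called this with EWS-FLI1 only. Its CPM with EWS-FLI1 were 198 and 197 in no ARID1A, 185 and 194 in WT and 150 and 163 in ΔIDR1b. With the empty vector they were 213 and 203, 198 and 196, and 172 and 181 in the same order. In both series the ΔIDR1b libraries were the lowest and did not overlap the other states. With EWS-FLI1 the fold change was -0.34 against no ARID1A (SE 0.10, adjusted p 0.00648 by edgeR) and -0.28 against WT (SE 0.10, adjusted p 0.0394). The first call was lost without either no-ARID1A library or without ΔIDR1b repeat 1 (adjusted p up to 0.0992). The second was lost in 9 of the 12 fits that left out a library (up to 0.282) and in 3 other settings. With the empty vector the difference from no ARID1A was -0.24 with an adjusted p of 0.0535 by edgeR. It was called with a replicate block within each vector (0.0222), with only the groups compared (0.00760) and in DESeq2 (0.0199). RLE scaling factors (0.0442) and removal of the length trend (-0.38, adjusted p 0.00255) also gave a call. Upper-quartile factors, no filter, a block over all libraries and removal of the outside-mRNA trend did not. Against WT with the empty vector the difference was -0.16 (adjusted p 0.232 by edgeR). MYL6, a myosin light chain gene next to SMARCC2 that shares exon bases with it, fell in ΔIDR1b against no ARID1A by 0.82 and 0.83 on the log2 scale (adjusted p 8.63e-07 and 5.85e-07). Its part in the result was not tested. SMARCC1 lies at chr3:47585269-47782106 and SMARCC2 at chr12:56162359-56189567.

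SMARCB1 (SNF5, also INI1), the tumour suppressor lost in rhabdoid tumours, was lower in ΔIDR1b than in no ARID1A with either second plasmid. With the empty vector its CPM were 231 and 205 in no ARID1A, 207 and 190 in WT, and 165 and 153 in ΔIDR1b. With EWS-FLI1 they were 209 and 207, 155 and 193, and 139 and 177. Both ΔIDR1b libraries lay below both no-ARID1A libraries in each series, and with EWS-FLI1 they overlapped WT. The fall against no ARID1A was -0.45 (SE 0.11, adjusted p 0.00229 by edgeR) with the empty vector, 1.37-fold, and -0.40 (SE 0.11, adjusted p 0.00688) with EWS-FLI1, 1.32-fold. Against WT it was -0.32 (SE 0.11, adjusted p 0.0363) with the empty vector and -0.14 (95% interval -0.37 to 0.10, adjusted p 0.441) with EWS-FLI1.

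Single libraries decided some SMARCB1 calls. Without no-ARID1A empty-vector repeat 1 the first fall had an adjusted p of 0.0627, and without ΔIDR1b EWS-FLI1 repeat 1 the second was -0.23 with one of 0.223. The call against WT was lost without any of the 4 libraries compared (up to 0.237) and in 3 other settings, DESeq2 among them. In WT against no ARID1A with EWS-FLI1, the difference of -0.26 (adjusted p 0.116) was called in the fit with a replicate block within each vector (-0.27, adjusted p 0.0173) and without WT repeat 2 (-0.42, adjusted p 0.00559). SMARCB1 lies at chr22:23786931-23838009, and 56.1% of its principal mRNA is overlapped by exons of DERL3 on the opposite strand, none of it coding sequence of SMARCB1. DERL3, an endoplasmic reticulum gene with 32 to 128 counts a library, fell by 1.34 (adjusted p 0.00257) and 1.00 (adjusted p 0.0207) on the log2 scale in ΔIDR1b against no ARID1A. No strand was used in counting, and fragments touching both genes were not counted. The part of DERL3 in the SMARCB1 values was not tested.

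SMARCE1 (BAF57), a DNA-binding core subunit with an HMG domain, had the widest range of the 10 members. Its CPM with the empty vector were 26.0 and 26.7 in no ARID1A, 15.2 and 21.7 in WT and 7.02 and 7.65 in ΔIDR1b. With EWS-FLI1 they were 28.3 and 21.3 in no ARID1A, 17.8 and 10.7 in WT, and 6.51 and 5.98 in ΔIDR1b. Within each series the 3 states did not overlap: no ARID1A was highest, WT between, and ΔIDR1b lowest.

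The fall of SMARCE1 in ΔIDR1b against no ARID1A was -1.84 (SE 0.22, 95% interval -2.28 to -1.41, adjusted p 3.67e-08 by edgeR) with the empty vector, a 3.59-fold fall. With EWS-FLI1 it was -1.99 (SE 0.22, 95% interval -2.44 to -1.54, adjusted p 1.12e-08), 3.97-fold. Against WT it was -1.33 (SE 0.22, adjusted p 3.02e-05) and -1.19 (SE 0.23, adjusted p 3.03e-04). These 4 calls held in all 21 alternatives. Leaving out 1 library moved the last difference to between -1.52 and -0.78, the latter without WT repeat 1. SMARCE1 fell in WT against no ARID1A with EWS-FLI1 as well, to a fold change of -0.80 on the log2 scale (SE 0.20, adjusted p 0.00540), a call lost without no-ARID1A repeat 1 (-0.58, adjusted p 0.149) or without WT repeat 2 (-0.47, adjusted p 0.115), and -1.21 without WT repeat 1. With the empty vector the WT difference was -0.51 (95% interval -0.92 to -0.11, adjusted p 0.0882), and -0.53 with an adjusted p of 0.0159 in the fit with a replicate block within each vector. In ΔIDR1b against no ARID1A with the empty vector, 965 of the 20377 genes (4.74%) had a lower fold change than SMARCE1.

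These SMARCE1 values do not measure its whole mRNA. The gene lies at chr17:40624962-40648654 on the minus strand. A second gene on that strand, ENSG00000264058, has exons that cover 1128 of the 1233 coding bases (91.5%) and 3697 of the 6196 bases (59.7%) of its principal mRNA. Fragments touching exons of both genes were not assigned to either, and ENSG00000264058 had 0 counts in all 12 libraries. The exon printed above, 105 bases, is the coding part that only SMARCE1 holds.

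What remained for SMARCE1 was 86 to 357 counts per library. These can come from that exon, from noncoding parts of the mRNA, and from counted exons outside the principal mRNA, which make up 67.6% of the 18470 counted bases. Its 7 named pseudogenes summed to 0 to 12 counts in a library, and fragments that mapped to several places were not counted. The SMARCE1 fall is therefore a fall in fragments unique to it.

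The same comparison was made for genes that share exons in a similar way. Among tested genes, 432 had at least 80% of their coding sequence within exons of another gene on the same strand. In ΔIDR1b against no ARID1A with the empty vector, 26.4% of these 432 were called lower, against 16.8% of all tested genes, and their median log2 fold change was -0.20 against 0.00. With EWS-FLI1 the values were 30.6% against 17.9% and -0.23 against 0.02. SMARCE1 fell further than most of them: 24 of the 432 had a lower fold change under the empty vector, and 23 did under EWS-FLI1. The fold change also moved with the share of counted exon bases outside the principal mRNA. Its median in the empty-vector comparison went from 0.25 where that share was 0 to 20% (4585 genes) to -0.14 where it was 80 to 100% (492 genes). With this trend removed the SMARCE1 differences were -1.77 and -1.92 (adjusted p 5.79e-08 and 1.59e-08). Whether spliced SMARCE1 mRNA changed was not tested.

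The SMARCD paralogs (BAF60A, BAF60B and BAF60C), of which a complex holds one, connect SWI/SNF to transcription factors. SMARCD1 overlapped between neighbouring states with the empty vector, at 138 and 155 CPM in no ARID1A, 162 and 150 in WT and 134 and 139 in ΔIDR1b. With EWS-FLI1 it was at 136 and 137, 154 and 163, and 130 and 129. The WT libraries were the highest there. SMARCD1 passed the test once, in ΔIDR1b against WT with EWS-FLI1 (-0.29, SE 0.10, adjusted p 0.0373 by edgeR), and this call was lost in 9 of the 12 fits without 1 library (adjusted p up to 0.148) and in 2 other settings.

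SMARCD2 was highest in WT. Its CPM with the empty vector were 126 and 134 in no ARID1A, 163 and 161 in WT and 115 and 121 in ΔIDR1b. With EWS-FLI1 they were 128 and 126, 143 and 144, and 108 and 121. No state overlapped another in either series, but not every difference passed the test. ΔIDR1b against no ARID1A was not called (-0.14 and -0.15, adjusted p 0.319 and 0.265 by edgeR). SMARCD2 was higher in WT than in no ARID1A with the empty vector by 0.32 (SE 0.10, adjusted p 0.0350 by edgeR), 1.24-fold, but this call was lost in 8 of the 12 fits without 1 library (adjusted p up to 0.238) and in 4 other settings. With EWS-FLI1 that difference was 0.18 (95% interval -0.03 to 0.38, adjusted p 0.235). ΔIDR1b was lower than WT with the empty vector, with a log2 fold change of -0.45 (SE 0.10, adjusted p 0.00111) or 1.37-fold, a call kept in all 21 alternatives. With EWS-FLI1 it was -0.33 (SE 0.10, adjusted p 0.0214), lost without ΔIDR1b repeat 1 (adjusted p 0.239) and in 1 other setting.

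SMARCD3, the paralog best known from heart and muscle, was highest in no ARID1A with the empty vector. Its CPM there were 42.4 and 45.8, against 35.6 and 36.4 in WT and 30.0 and 30.2 in ΔIDR1b. With EWS-FLI1 the values were 42.2 and 32.8 in no ARID1A, 31.2 and 33.6 in WT and 27.5 and 30.0 in ΔIDR1b. No ARID1A overlapped WT with EWS-FLI1, and ΔIDR1b lay below every library of the other states in each series. ΔIDR1b against WT was still not called (-0.26 and -0.17, adjusted p 0.182 and 0.420 by edgeR). SMARCD3 fell in ΔIDR1b against no ARID1A by 0.55 with the empty vector (SE 0.14, adjusted p 0.00206 by edgeR), 1.47-fold, in all 21 alternatives. With EWS-FLI1 it fell by 0.39 (SE 0.14, adjusted p 0.0290), a call lost without no-ARID1A repeat 1 (-0.20, adjusted p 0.461), without either ΔIDR1b repeat, or with the trend outside the principal mRNA removed (0.0526).

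Exons of CHPF2, a chondroitin synthesis gene on the opposite strand, share 26.9% of the counted exon bases of SMARCD3. Exons of all other genes together overlap 28.9% of the SMARCD3 coding sequence. CHPF2 rose in ΔIDR1b against no ARID1A by 1.75 (SE 0.16, adjusted p 2.07e-10 by edgeR) with the empty vector and by 1.74 (adjusted p 5.12e-10) with EWS-FLI1, from 107 to 601 counts over all libraries. Its part in the SMARCD3 values was not tested. The loci are chr12:50085200-50100707 for SMARCD1, chr17:63832081-63843065 for SMARCD2 and chr7:151238764-151277896 for SMARCD3.

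ACTL6A (BAF53A), the actin-related subunit of dividing cells, was higher in WT. Its CPM with the empty vector were 33.1 and 38.6 in no ARID1A, 44.8 and 45.0 in WT and 34.8 and 33.7 in ΔIDR1b. With EWS-FLI1 they were 32.4 and 33.3, 50.1 and 39.3, and 40.2 and 42.4. Both WT libraries exceeded both no-ARID1A libraries in each series, and ΔIDR1b overlapped no ARID1A with the empty vector and lay within the WT range with EWS-FLI1. The rise in WT with EWS-FLI1 was 0.45 (SE 0.14, adjusted p 0.0202 by edgeR), 1.36-fold. It was lost without WT repeat 1, the library at 50.1 CPM (0.26, adjusted p 0.246), without either no-ARID1A library and with only the groups compared in the fit. With the empty vector the difference was 0.33 (95% interval 0.05 to 0.60, adjusted p 0.114). ΔIDR1b was below WT with the empty vector by a fold change of -0.39 (SE 0.13, adjusted p 0.0309), lost without any of the 4 libraries compared (up to 0.167) and in 2 other settings, and with EWS-FLI1 the difference was -0.11 (95% interval -0.39 to 0.16). Against no ARID1A with EWS-FLI1, ΔIDR1b differed by 0.33 (adjusted p 0.0563), called at 0.0267 with a replicate block within each vector. ACTL6A lies at chr3:179562886-179588407.

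EWS-FLI1 left no member past the test. In edgeR 0 of 10 members were called in each of the 3 states (no ARID1A, WT, ΔIDR1b) and in their average, where 0.0442%, 0.221%, 0.172% and 0.466% of all genes were called. The 3 interactions also called 0 of 10, against 0.0245%, 0.0196% and 0% of all genes. DESeq2 called 0 of 10 in each of these 7 contrasts as well. The share of all genes at an unadjusted p under 0.05 is not given here. At that threshold there were 0, 0, 1 and 0 members in the EWS-FLI1 contrasts and 0, 1 and 1 in the interactions. The first of these was SMARCA2 in ΔIDR1b (-0.25, p 0.0484 by edgeR, adjusted p 0.909), and the interactions were those of ACTL6A (0.40, p 0.0472, adjusted p 1.00) and SMARCA2.

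In the average over the 3 states the members' log2 fold changes ran from -0.23 for SMARCE1 (95% interval -0.48 to 0.02) to 0.06 for SMARCC1 (-0.05 to 0.17). SMARCA4 was at -0.09 (-0.20 to 0.03). These intervals bound any average change of SMARCA4 to a fall of 0.20 or a rise of 0.03 on the log2 scale, whereas SMARCE1 is bounded less closely. The tandem GGAA upstream of the internal SMARCA2 start stood beside an average SMARCA2 change with an interval that contains 0.

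**Figure D3:**
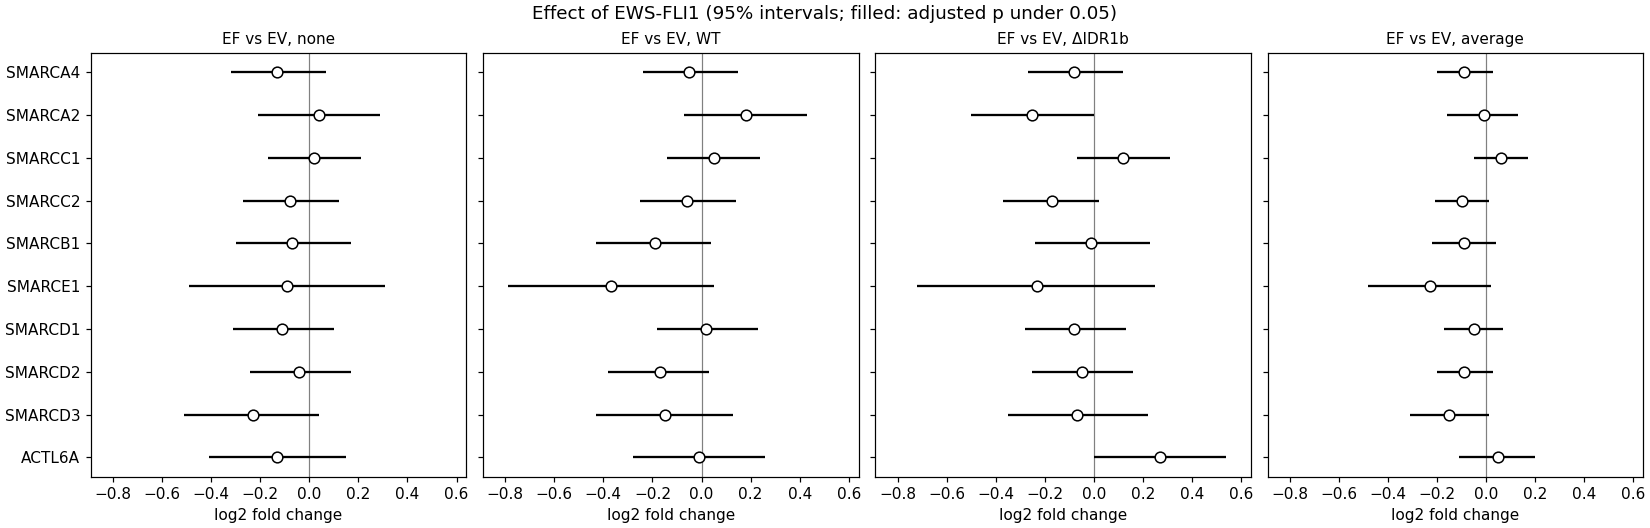
Log2 fold changes of the 10 genes with EWS-FLI1 (EF) against the second empty vector (EV) in each ARID1A state and averaged, with 95% intervals. No point is filled, that is, 0 of 10 had an adjusted p under 0.05, and the averages lie between -0.23 and 0.06.

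Within a paralog family, subunits replace one another, so the share of each paralog was computed per library from levels per counted length. The 4 libraries of a state were compared with those of another in 12 exact permutation tests (2-sided, 70 splits, smallest possible p 0.0286). SMARCD3 made up 11.9 to 14.8% of the SMARCD transcripts in no ARID1A, 10.2 to 11.3% in WT and 11.1 to 11.5% in ΔIDR1b. Its share in no ARID1A (14.1% ± 1.42, SD, n = 4) thus did not overlap WT (10.7% ± 0.472) or ΔIDR1b (11.3% ± 0.234). Both differences reached the smallest possible p of 0.0286 in the exact permutation test and an adjusted p of 0.137. The size of the share depends on the length by which the whole count of each gene was divided. Per base of free mRNA, SMARCD3 made up 24.3% ± 2.19 without ARID1A, 18.9% ± 0.635 with WT and 20.1% ± 0.324 with ΔIDR1b (SD, n = 4 each), again without overlap of no ARID1A with the other states (21 to 25.4% against 18.2 to 20.5%).

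The other shares per counted length overlapped between states. SMARCA2 was 9.02% ± 0.687 of the 2 ATPases without ARID1A, 8.79% ± 1.3 with WT and 7.9% ± 0.626 with ΔIDR1b. SMARCC1 was 63.7% ± 1.43, 63.7% ± 1.39 and 66.6% ± 2.69 of the scaffold pair, and SMARCD2 37% ± 1.08, 39.9% ± 1.72 and 37.4% ± 1.02 of its family (SD, n = 4 each). With the same counts divided by free mRNA bases, SMARCC1 was 47.3% ± 1.53, 47.3% ± 1.49 and 50.6% ± 3.03 of the pair. Which scaffold gene had the larger share thus turned over with the length used in no ARID1A and WT, and not in the mean of ΔIDR1b. After adjustment none of the 12 tests passed, with adjusted p from 0.137 to 0.971 in the exact permutation tests. With a smallest possible p of 0.0286, an adjusted p under 0.05 needed many of the 12 tests at that floor. These tests could therefore hardly pass and do not show that the shares stayed the same. These splits mix the second plasmids and ignore the pairing of repeats. Against the same-numbered library of the same plasmid, the SMARCA2 share was lower in ΔIDR1b than in no ARID1A in 4 of 4 pairs. The SMARCD3 share was lower than in no ARID1A in 4 of 4 pairs both in WT and in ΔIDR1b. The exact paired permutation test gave p 0.125 for each of these, the smallest that 4 pairs allow. Permutation by splits within each plasmid gave p 0.111 for SMARCA2 and 0.0556, the smallest possible, for both SMARCD3 differences. Neither design can pass 0.05.

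**Figure D4:**
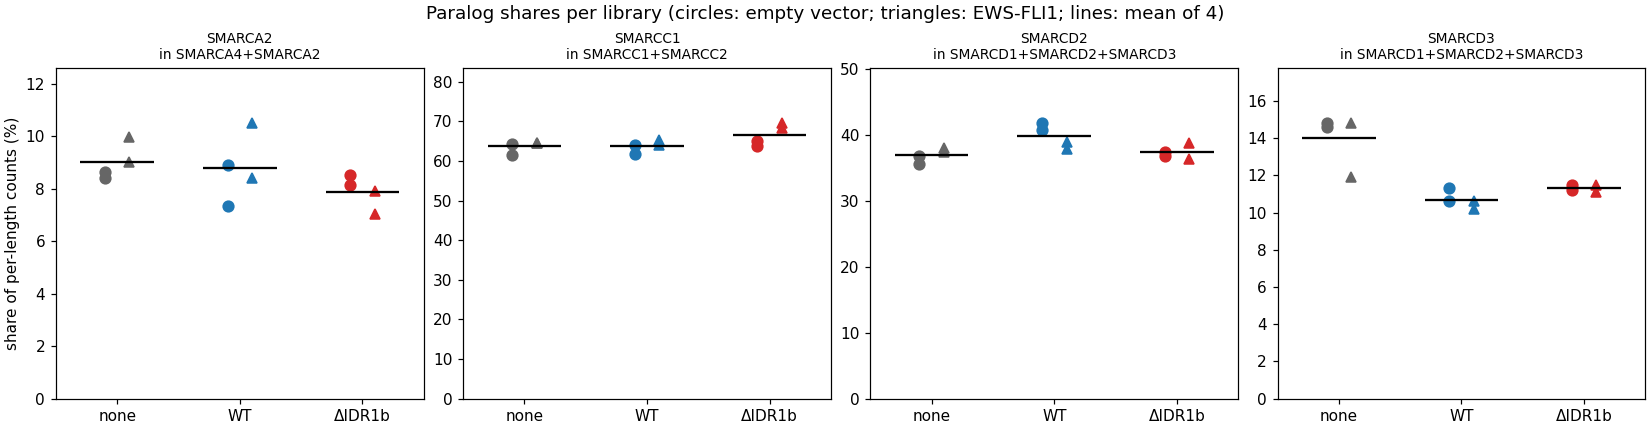
Share of a paralog in its family per library (percent, levels per counted exon length), by ARID1A state, with the mean of the 4 libraries as a line. The no-ARID1A libraries ("none") of SMARCD3 lie between 11.9 and 14.8%, above all WT and ΔIDR1b libraries.

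The nearest patterns were found for the 3 members with the widest range of group means, by the mean absolute difference of centred log2 CPM over the 12 libraries among 16693 other genes. For SMARCE1 they were SLC16A4-AS1 (0.113), CCNL1 (0.122) and MED17 (0.130). CCNL1 encodes cyclin L1 of the splicing machinery and MED17 a Mediator subunit, and 94.2% of the MED17 coding sequence lies in exons of another gene on its strand. For SMARCD3 they were SPAG5 (0.067), NECAB3 (0.068) and KIAA0319L (0.075). For SMARCD2 they were AKR1B1 (0.045) and the translation initiation genes EIF3I (0.049) and EIF3L (0.049).

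Among 18 other SWI/SNF subunits, all tested, the calls went both ways. WT against no ARID1A gave 2 rises and 1 fall under the empty vector and 2 rises and 2 falls under EWS-FLI1. ΔIDR1b gave 2 rises and 3 falls, then 2 rises and 5 falls, in the same order. Set against WT, ΔIDR1b gave 1 rise and 3 falls, then 1 rise and 2 falls. The shares of all genes called in these 6 comparisons are those given above, 11.7%, 18.1%, 33.3%, 35.9%, 24.5% and 18.6%. ARID1B, the paralog of ARID1A, stood at 132 to 145 CPM in no ARID1A, 89.9 to 109 in WT and 86.8 to 97.7 in ΔIDR1b. It was lower with either ARID1A form in all 4 comparisons, from -0.45 (SE 0.11, adjusted p 0.00468) in WT with the empty vector to -0.66 (SE 0.11, adjusted p 1.08e-05) in ΔIDR1b with EWS-FLI1. The 2 ARID1A forms were not called different for ARID1B (-0.04 and -0.11).

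BCL7A, a small BAF subunit, moved the other way and rose in all 4 comparisons with no ARID1A, by 0.38 to 0.57. BICRAL, a subunit of the non-canonical form of SWI/SNF, was 10.4 to 12.0 CPM in ΔIDR1b and 3.96 to 7.07 in the other states. It rose in all 4 comparisons of ΔIDR1b, by 0.96 (SE 0.25, adjusted p 0.00315) to 1.15 (SE 0.26, adjusted p 6.59e-04). DPF2 was higher in WT than in no ARID1A by 0.35 and 0.28, and lower in ΔIDR1b than in WT with the empty vector (-0.33). BCL7B was lower in ΔIDR1b than in no ARID1A by a fold change of -0.35 and -0.41, and ACTB, a housekeeping actin that is also a SWI/SNF subunit, by -0.32 with the empty vector (adjusted p 0.00419 by edgeR). ACTB was also lower in ΔIDR1b than in WT (-0.35 and -0.33), and BCL7B was with the empty vector (-0.37). The other calls were ARID2 in WT against no ARID1A with EWS-FLI1 (-0.39), SS18L1 (-0.40) and BCL7C (-0.42) in ΔIDR1b against no ARID1A with EWS-FLI1, and BRD9 in ΔIDR1b with EWS-FLI1 (-0.36 against no ARID1A and -0.35 against WT).

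Of 15 ATPases of other remodellers, all tested, WT against no ARID1A gave 0 rises and 1 fall under the empty vector and 0 rises and 2 falls under EWS-FLI1. In the same order, 6.50% and 9.72% of all genes rose and 5.19% and 8.36% fell. In ΔIDR1b against no ARID1A, 16.4% and 18.1% of all genes rose and 16.8% and 17.9% fell. The 15 ATPases gave 7 rises and 1 fall, then 6 rises and 2 falls. The risers were CHD8 (0.56 and 0.50), CHD9 (0.50 and 0.48), INO80 (0.50 and 0.66), CHD7 (0.41 and 0.45), SMARCAD1 (0.40 and 0.50), SMARCA5 (0.27 and 0.39), the ATPase of ISWI complexes, and, with the empty vector, EP400 (0.31). CHD2 fell in all 4 comparisons with no ARID1A, most in WT with EWS-FLI1 (-0.87, SE 0.11, adjusted p 6.13e-07). ATRX fell with EWS-FLI1 in WT (-0.50) and in ΔIDR1b (-0.38) against no ARID1A. In ΔIDR1b against WT, 11.1% and 8.48% of all genes rose and 13.4% and 10.1% fell. The 15 ATPases gave 4 rises and 0 falls, then 2 rises and 0 falls. The former were CHD8 (0.39), CHD9 (0.55), INO80 (0.48) and EP400 (0.40), and the latter CHD9 (0.62) and SMARCAD1 (0.51). With EWS-FLI1 against the second empty vector, 0 of the 18 subunits and 0 of the 15 ATPases were called in edgeR, whether in a single state or averaged. Of all genes, 0.0442% to 0.466% were called there. In the average, 1 member of each list had an unadjusted p under 0.05 in edgeR. The share of all genes under that unadjusted threshold is not given here.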

How the data were processed

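PolyA RNA sequencing of 12 libraries was used. Per the file headers, the authors made the deposited counts with featureCounts 2.0.1 as fragments per gene name on the exons of GENCODE release 41 (GRCh38.p13). Both ends had to map, no strand option was set, and fragments touching several genes or mapping to several places were not counted. The submitters' processing notes name STAR, SAMtools, featureCounts and edgeR. Their versions, apart from featureCounts, are not given in the sources used here, and the deposited counts carry no normalization.

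From those counts, genes were kept by filterByExpr (minimum count 10, minimum total 15), and library sizes were adjusted by TMM (trimmed mean of M-values). In edgeR 4.0.16 (with limma 3.58.1 and R 4.3.3), a model of 6 group means took all 12 libraries, with 13 contrasts and Benjamini-Hochberg adjustment over 20377 genes in each. DESeq2 1.42.0 was an alternative. Common biological variation was 10.1%. The p-values measure the spread between these libraries, which may be technical. Log2 fold changes carry standard errors from the F statistic. The procedure was tested on simulated counts. Principal mRNAs came from GENCODE 29 (GRCh38).

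All 10 members, the called genes of a list of 18 other subunits and of 15 ATPases, and the 3 nearest patterns of 3 members were named by rule, and ARID1A and FLI1 served as checks. SMARCE1's overlapping gene, CHPF2, DERL3 and MYL6 were named after their values were seen. The members and lists were chosen with earlier results of these data known.

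Repeat numbers paired the libraries within each second plasmid. Over 10695 genes, the repeat differences of groups with the same plasmid correlated at 0.104, 0.148 and 0.194 for the empty vector and 0.153, 0.216 and 0.412 for EWS-FLI1. All 9 pairs with different plasmids were negative, down to -0.223. Between repeats of a group, counts differed by 12.1 times the sampling variance in WT with EWS-FLI1 and by 3.02 to 6.13 times in the other groups. No 2 libraries were therefore taken as 1. All groups shared 1 estimate of the spread. With only the groups compared, called genes went from 3684 to 2202 in WT against no ARID1A with EWS-FLI1. In ΔIDR1b against WT with EWS-FLI1 they went from 3785 to 1622. They rose in the other comparisons between states. The depth limits SMARCE1 most, at 86 to 357 counts a library.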

Additional observations from a re-analysis of the deposited data

How the results depend on the processing

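The results of the members, and the counts of all called genes between ARID1A states, were recomputed under 21 alternatives. These were other scaling factors, no low-count filter, 2 replicate blocks, DESeq2, removed trends, only the groups compared, and without each library in turn. For the other SWI/SNF subunits and the ATPases of other remodellers, the calls are those of the main fit, and their dependence on these settings is not given. Paralog shares had alternatives of their own: the length used, other permutations, and leaving out 1 library. Removing the trend with the share of exons outside the principal mRNA was chosen after seeing the data, as were shares per base of free mRNA and the permutations of shares within a plasmid and within repeat pairs (a replicate block). In those 2 permutations none of the 12 share tests passed, and neither could. Of the 20 called pairs of member and comparison, 7 held throughout: SMARCE1 in the 4 comparisons with ΔIDR1b, SMARCD3 in ΔIDR1b against no ARID1A and SMARCD2 in ΔIDR1b against WT with the empty vector, and SMARCA2 in ΔIDR1b against WT with EWS-FLI1. For WT against no ARID1A with the empty vector, the count of members called was 1 and became 0 with upper-quartile factors, with no filter, and with either trend removed, and 2 with a replicate block within each vector and with only the groups compared. With EWS-FLI1 it went from 2 to 1 with only the groups compared. For ΔIDR1b against no ARID1A with the empty vector it went from 3 to 5 with the length trend removed. Against WT it went from 4 to 2 with the empty vector under upper-quartile factors and under removal of the outside-mRNA trend, and from 5 with EWS-FLI1 to 3 under upper-quartile factors and 2 with only the groups compared. The causes were not tested. Over all genes, WT against no ARID1A with the empty vector had 2381 calls in the main fit. It had 2115 to 2426 in those settings with 0 members, and 3606 and 3088 in those with 2. ΔIDR1b against no ARID1A with the empty vector went from 6778 to 6452 calls, and against WT from 4995 to 4975 and 4971. With EWS-FLI1, ΔIDR1b against WT went from 3785 to 3718 under upper-quartile factors. The number of all genes called also differed between fits without 1 library. Without 1 library the counts ran, for WT against no ARID1A, from 0 to 3 with the empty vector and 0 to 2 with EWS-FLI1, for ΔIDR1b against no ARID1A from 2 to 4 and 1 to 6, and for ΔIDR1b against WT from 2 to 4 and 2 to 5. Counts for EWS-FLI1 and the interactions stayed at 0 in edgeR and DESeq2 under all alternatives, beside at most 1 member at an unadjusted p under 0.05 in the main fits. The block within each vector changed the call of SMARCE1, SMARCB1, SMARCC2 and ACTL6A once each, as given with those genes, and no other call of a member.

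Upper-quartile factors moved the lower share of all called genes from 44.4 to 60.6% and from 46.2 to 57.8% in WT against no ARID1A, and from 54.6 to 43.9% in ΔIDR1b against WT with the empty vector. Removing the outside-mRNA trend moved it to 58.4% and 57.3% in the first 2 and from 49.7 to 59.8% in ΔIDR1b against no ARID1A with EWS-FLI1. The differences in paralog share that changed sign had not passed the test and did so without 1 library. For SMARCC1 in WT against no ARID1A (-0.0321 percentage points) the values ran from -0.746 to 0.598, with 0.143, 0.233 and 0.241 also above 0, for SMARCD2 in ΔIDR1b against no ARID1A (0.382) they ran from -0.0817 to 0.766, with -0.0812 also below 0, and for SMARCA2 in WT against no ARID1A (-0.231) they ran from -0.793 to 0.247, with 0.0859 also above 0.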
